A study of Mus musculus with 3 samples.

Results

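A set of 40 genes around the transcription factor ATF4 was followed in CT26.WT cells, a mouse colon carcinoma line, exposed to recombinant S100a8 or S100a9. The set was defined by gene symbol, from known roles, and covers ATF4 with its stress-response targets (8 genes), amino acid and one-carbon synthesis (13), amino acid transport (7) and tRNA charging (12). Of the 40 genes, 38 had a probe set under exactly that symbol and 35 were bright enough to be compared, out of 11138 genes compared in all. CT26.WT cells were kept without serum for 12 h and then given recombinant mouse S100a8 or S100a9 at 4 µg/ml for 24 h, and their RNA was measured on Affymetrix whole-genome mouse arrays. For the control array, the title names BSA, while the description and the series design name normal saline. No serum-free time or treatment time was recorded here for the control. The labels name no replicate culture, so each group (S100a8, S100a9, control) is 1 array of 1 culture, no test was possible, and every difference below is one between single arrays.

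S100a8 and S100a9 are calcium-binding proteins released by myeloid cells. ATF4 is made when stress kinases, among them the amino acid sensor GCN2 and the endoplasmic reticulum sensor PERK, phosphorylate the initiation factor eIF2, which lowers general translation but favours that of ATF4 itself. ATF4 then binds C/EBP-ATF composite elements and raises genes that make, import and charge amino acids, together with feedback genes such as Trib3 and Chac1. ATF4 is largely controlled through its translation, so its own mRNA is only part of its regulation.

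The composite element was looked for in the RefSeq promoter sequences (build GRCm38.p6). The set was chosen around ATF4, which binds this element, so a high share in the set follows from the choice and is no independent result. The search read the 250 bases before each listed start site for TGATGNAAN on either strand, where N is any base and which reads NTTNCATCA on the opposite strand. The sequence table held 30 of the 40 genes, and 9 of them (30%) had the element in at least 1 window: Chac1, Nupr1, Got1, Aars, Vldlr, Gars, Tars, Asns and Pycr1. Among all promoters in the table it was in 1129 of 32851 windows (3.44%) and in 1052 of 27025 genes (3.89%). A match is a run of letters, not a measured binding site.

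The 6 promoters printed here are those with a match whose genes had the largest differences from control under either protein, so that the element can be read beside the signals given further on. Each is 5′ to 3′ in the direction of its gene and ends at the base before the start site, with the matched bases in capitals. They lie at chr2:119350992-119351241 (plus strand) for Chac1, chr7:126625471-126625720 (minus strand) for Nupr1, chr19:43524606-43524855 (minus strand) for Got1, chr8:111033592-111033841 (plus strand) for Aars, chr19:27216770-27217019 (plus strand) for Vldlr, at the second of its start sites, and chr6:55037751-55038000 (plus strand) for Gars.
Chac1: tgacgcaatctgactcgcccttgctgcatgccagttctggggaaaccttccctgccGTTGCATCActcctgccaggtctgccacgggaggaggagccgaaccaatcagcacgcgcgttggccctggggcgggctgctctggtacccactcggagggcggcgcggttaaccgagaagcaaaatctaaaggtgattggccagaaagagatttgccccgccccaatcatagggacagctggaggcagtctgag
Nupr1: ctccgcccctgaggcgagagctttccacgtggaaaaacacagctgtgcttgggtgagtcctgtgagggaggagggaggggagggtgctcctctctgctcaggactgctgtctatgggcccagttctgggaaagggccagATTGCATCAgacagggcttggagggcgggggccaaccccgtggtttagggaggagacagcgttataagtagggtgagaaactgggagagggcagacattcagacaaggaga
Got1: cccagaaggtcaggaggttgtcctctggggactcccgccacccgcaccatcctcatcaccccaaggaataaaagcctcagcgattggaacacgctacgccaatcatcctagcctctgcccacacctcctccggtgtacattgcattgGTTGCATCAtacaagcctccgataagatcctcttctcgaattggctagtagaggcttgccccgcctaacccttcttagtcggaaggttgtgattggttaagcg
Aars: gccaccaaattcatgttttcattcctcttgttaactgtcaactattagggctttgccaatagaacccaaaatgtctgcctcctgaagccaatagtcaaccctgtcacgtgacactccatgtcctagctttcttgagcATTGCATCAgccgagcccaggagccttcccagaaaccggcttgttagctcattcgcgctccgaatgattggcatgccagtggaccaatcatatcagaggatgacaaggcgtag
Vldlr: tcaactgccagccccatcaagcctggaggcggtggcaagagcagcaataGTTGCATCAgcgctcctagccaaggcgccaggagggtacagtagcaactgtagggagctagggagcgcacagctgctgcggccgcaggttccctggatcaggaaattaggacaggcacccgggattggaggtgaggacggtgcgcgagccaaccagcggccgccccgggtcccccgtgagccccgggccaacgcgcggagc
Gars: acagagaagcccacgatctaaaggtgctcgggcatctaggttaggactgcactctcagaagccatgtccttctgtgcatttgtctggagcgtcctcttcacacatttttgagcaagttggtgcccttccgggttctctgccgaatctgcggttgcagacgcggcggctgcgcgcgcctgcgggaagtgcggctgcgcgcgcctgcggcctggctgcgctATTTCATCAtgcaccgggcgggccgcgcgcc

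In these 6 promoters the element lies on the strand opposite to the gene. It starts 194 bases before the start site in Chac1, 111 in Nupr1, 103 in Got1, 113 in Aars, 201 in Vldlr and 31 in Gars. The 9 matched bases are the same in Nupr1 and Aars (ATTGCATCA) and the same in Chac1, Got1 and Vldlr (GTTGCATCA). Tars carries the latter run 16 bases before its start. In Asns and Pycr1 the match is on the strand of the gene, as TGATGAAAC 23 bases and TGATGCAAT 103 bases before the start.

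Signals are linear intensities per probe set, as deposited. Values below the median of all signals (75.97, called the floor here) were set to the floor, a gene was read from its brightest probe set, and it was compared when that probe set's mean log2 signal lay above the floor. Ratios are differences of log2 signals, and counts use, as a description, a difference of 1.5-fold or a smaller one of 0.32 on the log2 scale (5 parts against 4). Levels of different genes come from different probes and are not set against each other. Because both proteins were compared with the same control array, their ratios are given side by side and no likeness between them is read.

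**Figure D1:**
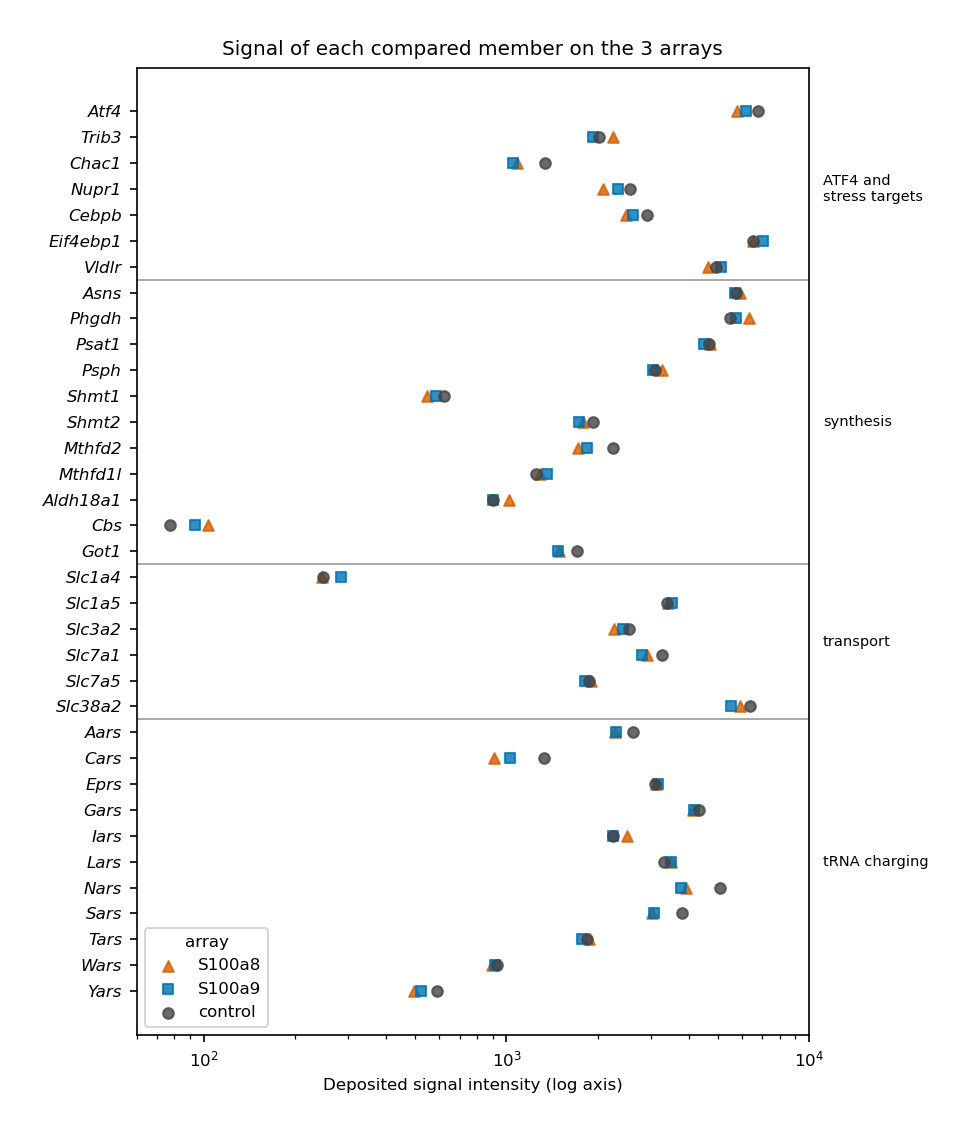
Deposited signal intensity (log axis) of the 35 compared genes, by role, with 1 point per array: triangles S100a8, squares S100a9, circles control. Levels are to be read along a row only. For most genes the 3 points nearly touch, while for Cars (908, 1024 and 1331), Nars and Mthfd2 the control point stands apart to the right.

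No compared gene of the set differed from control by 1.5-fold in either direction, with either protein. Among all compared genes, S100a8 had 1.91% lower by that size and 1.13% higher, and S100a9 had 0.853% and 0.251%. At the smaller size of 0.32, 4 of 35 were lower with S100a8 (Cars, Mthfd2, Nars and Sars) and 1 was higher (Cbs), where 8.01% and 9.48% of all compared genes were. With S100a9, 3 of 35 were lower by 0.32 or more (Nars, Cars and Chac1) and none was higher, where 5.04% and 3.23% of all genes were. Both counts of lower genes are close to those background shares.

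By direction alone, 21 of 35 genes (60%) were below control with S100a8, against 47.5% of all compared genes, and 25 of 35 (71.4%) with S100a9, against 48.1%. The same 2 shares belong beside the counts by role and by list further on. Of the 35 genes, 28 lay in the brightest 25% of compared genes, where 51.7% were below control with S100a8 and 47.7% with S100a9. With the ratios centred by brightness in 20 bins, 60% of the set were below control with S100a8, against 49.9% of all genes. With S100a9 these shares were 74.3% and 49.7%. The part of brightness in these gaps was not tested. The median log2 ratio of the 35 was −0.06 with S100a8 and −0.05 with S100a9, beside 0.01 and 0.0045 for all genes. When each array was centred on its median, 27 of 35 were below control with S100a8 (77.1%, against 56.8% of all genes) and 19 with S100a9 (54.3%, against 36.9%). The central 95% of single-gene ratios over all compared genes ran from −0.54 to 0.49 with S100a8 and from −0.41 to 0.35 with S100a9.

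**Figure D2:**
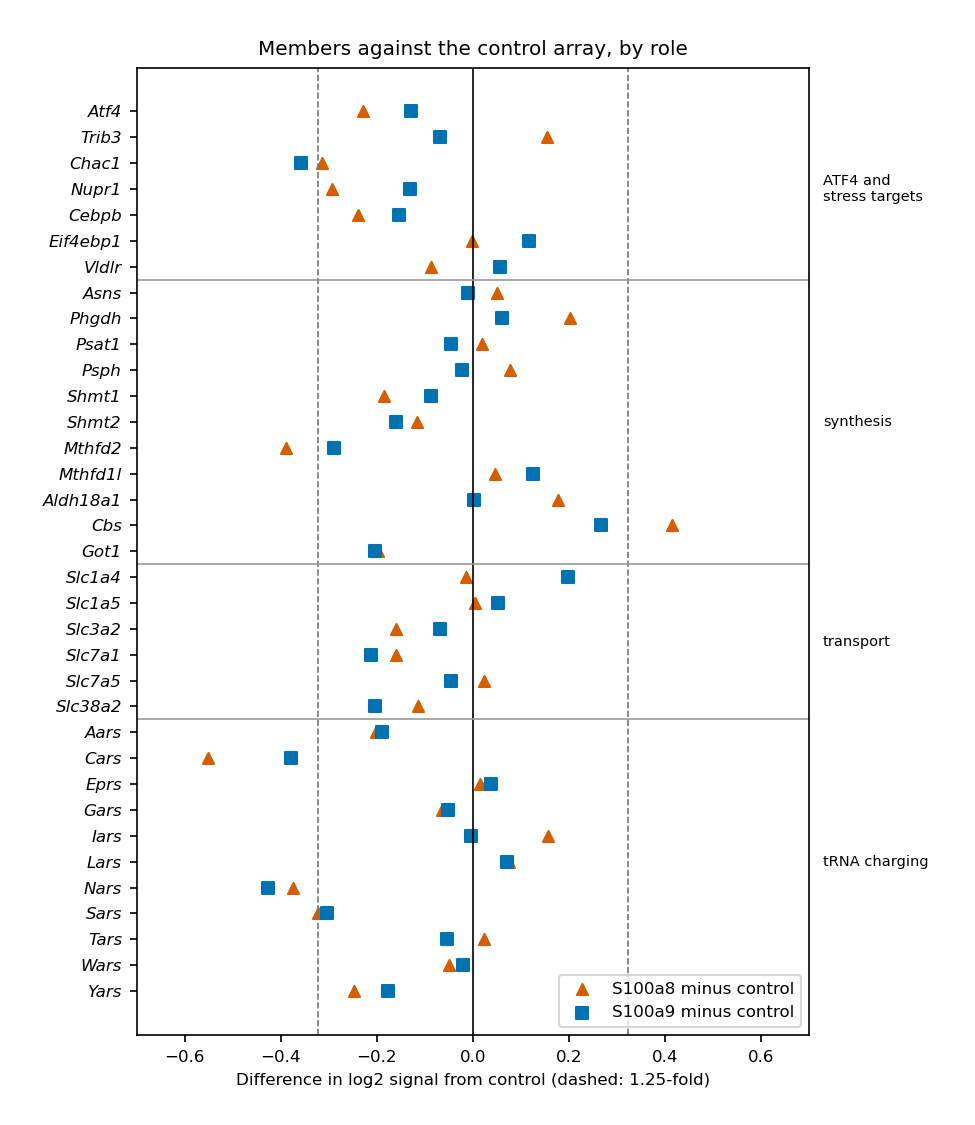
Difference in log2 signal from the control array for each compared gene, by role, with triangles for S100a8 and squares for S100a9; the solid line marks no difference and the dashed lines 0.32 either way. Cars, Nars, Sars, Mthfd2 and Chac1 lie farthest to the left and Cbs farthest to the right.

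The signals of Atf4 itself were 5785 (S100a8), 6199 (S100a9) and 6776 (control). It was thus highest in the control, with log2 ratios of −0.23 and −0.13. A second probe set gave 4537, 3994 and 4147, which is 0.13 above control with S100a8 and −0.05 with S100a9. The remaining probe set of Atf4 lay just above the floor (77.7, 81.4 and 76.3). The direction of Atf4 with S100a8 therefore depended on the probe set.

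The feedback genes Trib3 and Chac1 had unlike orders of arrays. Trib3, a pseudokinase that inhibits ATF4 signalling, had signals of 2256, 1934 and 2028 with S100a8, S100a9 and control, or ratios of 0.15 and −0.07. The S100a8 array was the high one, and its other probe set was closer to control (990, 933 and 968). Chac1, which degrades glutathione, had 1081 and 1049 with the proteins against 1343 in the control. It was 1.24-fold lower with S100a8 and 1.28-fold lower with S100a9 (log2 ratios of −0.31 and −0.36), on its only probe set. With S100a9, 3.87% of all compared genes had a lower ratio than Chac1.

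Nupr1, a small stress-induced chromatin protein, had signals of 2081, 2329 and 2551, lowest with S100a8 and highest in the control. Its log2 ratios were −0.29 and −0.13, and its second probe set gave −0.32 and −0.14. Cebpb, which encodes a partner of ATF4 on composite elements, had 2474, 2624 and 2918, or −0.24 and −0.15, and its second probe set gave −0.31 and −0.15. Both genes followed the same order of arrays on each of their probe sets. Cebpb is also a gene of inflammatory signalling, so it is not specific to ATF4.

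On their brightest probe sets, the other compared stress-response targets were close to control. With S100a8 the probe sets of Eif4ebp1 ran from −0.11 to 0.17 and those of Vldlr from −0.27 to 0.16. Eif4ebp1, a repressor of cap-dependent translation, had 6499, 7061 and 6511 (ratios of −0.003 and 0.12), and Vldlr, a lipoprotein receptor, had 4618, 5098 and 4902 (−0.09 and 0.06). The hormone gene Stc2 was under the floor throughout (69.6, 55.3 and 61.9) and was not compared. In this role 6 of 7 compared genes were below control with S100a8 and 5 of 7 with S100a9, with medians of −0.23 and −0.13. With the mean of all probe sets of each gene these medians were −0.03 and −0.06.

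The genes of serine synthesis, a classical ATF4 output, were near or above control. Phgdh, its first enzyme, had signals of 6314, 5725 and 5492, highest with S100a8, with log2 ratios of 0.20 and 0.06. One further probe set of Phgdh agreed (0.25 and 0.12) and another did not (−0.06 and −0.12). Psat1, the aminotransferase of the pathway, had 4714, 4506 and 4651 (0.02 and −0.05), and Psph, its phosphatase, 3272, 3053 and 3100 (0.08 and −0.02). Asns, asparagine synthetase, the gene in which the amino acid response has long been studied, had 5915, 5668 and 5710. Its ratios of 0.05 and −0.01 put it at control level on these arrays, and its second probe set gave 0.03 and −0.06.

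Of 3 mitochondrial one-carbon genes, Mthfd2 and Shmt2 were below control with both proteins. Mthfd2, a mitochondrial folate dehydrogenase, had 1719, 1843 and 2251. It was 1.31-fold and 1.22-fold lower (log2 ratios of −0.39 and −0.29), and its second probe set gave −0.32 and −0.18. The control was the high array on both probe sets. Shmt2, the mitochondrial serine hydroxymethyltransferase, had 1787, 1732 and 1936 (−0.12 and −0.16), with −0.25 and −0.17 on a second probe set. Mthfd1l, which acts after Mthfd2 in the same compartment, was not below control (1290, 1364 and 1250; ratios of 0.05 and 0.13).

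The cytosolic isoform Shmt1 had 547, 585 and 622, or ratios of −0.19 and −0.09, but its 4 probe sets ran from −0.54 to 0.13 with S100a8. Got1, the cytosolic aspartate aminotransferase, had 1489, 1485 and 1709, with both treated arrays below control by −0.20. Aldh18a1, which starts proline synthesis from glutamate, had 1019, 903 and 902 (0.18 and 0.003). Its probe sets above the floor ran from 0.01 to 0.50 with S100a8 and from −0.05 to 0.31 with S100a9. The proline gene Pycr1 had no probe set under its symbol and was not analysed here.

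The transsulphuration genes were dim. Cbs had signals of 104, 93.4 and 77.7, just above the floor, and was 1.33-fold and 1.20-fold higher (log2 ratios of 0.41 and 0.27). Its second probe set stayed under the floor (50.7, 49.8 and 51.1). Dim probe sets as a group read higher on the S100a8 array: among the dimmest 25% of genes the median was 0.14 with S100a8 and 0 with S100a9. With the arrays centred by brightness in 20 bins, Cbs was at 0.22 with S100a8, below the size of 0.32, and at 0.27 with S100a9. Cth, the next enzyme, was under the floor throughout (28.5, 20.5 and 17.7). In the synthesis role, 4 of 11 compared genes were below control with S100a8 and 7 of 11 with S100a9, with medians of 0.05 and −0.02.

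On their brightest probe sets, the compared transporters had log2 ratios from −0.21 to 0.20, while further probe sets of Slc38a2 and Slc1a5 were lower. Slc7a1, an arginine and lysine carrier, had 2913, 2809 and 3254, highest in the control, with log2 ratios of −0.16 and −0.21 and −0.20 and −0.09 on its second probe set. Slc3a2, the heavy chain shared by several exchangers, had 2272, 2421 and 2540 (−0.16 and −0.07). Its partner Slc7a5, which carries leucine, had 1901, 1811 and 1869 (0.02 and −0.05). Slc1a5, a glutamine carrier, had 3409, 3524 and 3401 (0.004 and 0.05), and Slc1a4, an alanine and serine carrier, 246, 285 and 248 (−0.01 and 0.20).

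Slc38a2, an amino acid carrier induced by starvation, had 5887, 5535 and 6373, or −0.11 and −0.20. Its probe sets disagreed in size: a second one gave 1072, 1223 and 1761, or −0.72 and −0.53, and a dim one 0.22 and −0.09. Slc1a5 showed a like split, with a dim second probe set at 135, 170 and 278 (−1.04 and −0.71). Slc7a3 was above the floor in the control alone (57.8, 65.1 and 98.3). It was at least 1.29-fold lower with each protein and stayed outside the counts. Of the 6 compared transporters, 4 were below control with each protein, with medians of −0.06 and −0.06.

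The tRNA synthetase genes encode the enzymes that load amino acids on tRNA. On the brightest probe sets they hold the lowest ratios of the set, while the further probe sets of Slc1a5 and Slc38a2 given above were lower. Cars (cysteine) had 908, 1024 and 1331, and was 1.46-fold and 1.30-fold lower. That is a log2 ratio of −0.55 and −0.38 (−0.22 and −0.24 as the mean of all its probe sets), and 2.33% of all compared genes were lower with S100a8. A second probe set of Cars, close to the floor (88.4, 68.4 and 81.8), gave 0.11 and −0.11. Nars (asparagine) had 3917, 3776 and 5077 and was 1.30-fold and 1.34-fold lower (−0.37 and −0.43). Its second probe set gave −0.19 and −0.21, and 2.32% of all genes were below it with S100a9.

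Sars (serine) had 3027, 3069 and 3786, with ratios of −0.32 and −0.30 and −0.22 and −0.21 on its second probe set. Aars (alanine) had 2275, 2293 and 2616 (−0.20 and −0.19), while its second probe set had 1270, 1246 and 1857 (−0.55 and −0.58). Yars (tyrosine) had 496, 521 and 589 (−0.25 and −0.18). In each of these genes both treated arrays lay below the control, and the signals of the treated arrays were close to each other.

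The remaining synthetase genes were near control. Gars (glycine) had 4134, 4170 and 4319 (−0.06 and −0.05), Tars (threonine) 1874, 1777 and 1845 (0.02 and −0.05) and Wars (tryptophan) 897, 915 and 928 (−0.05 and −0.02). Wars is also induced by interferon. Lars (leucine) had 3502, 3493 and 3326 (0.07 and 0.07), and Iars (isoleucine) 2504, 2241 and 2248 (0.16 and −0.004). Eprs, the fused glutamate and proline enzyme, had 3119, 3173 and 3089 (0.01 and 0.04), but its 4 probe sets ran from −0.05 to 0.52 with S100a8. Mars had no probe set under that symbol; the annotation lists it as Mars1, which lay at control level (1419, 1399 and 1436).

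Of the 11 compared synthetase genes, 7 were below control with S100a8 and 9 with S100a9, with medians of −0.06 and −0.05. After these values were seen, all cytoplasmic synthetase genes measured were divided by whether the enzyme belongs to the multi-synthetase complex. The 7 genes of complex enzymes (Eprs, Iars, Lars, Mars1, Kars, Qars and Rars) had log2 ratios from −0.02 to 0.16 with S100a8 and from −0.04 to 0.17 with S100a9. The 12 other genes had a median of −0.22 with S100a8 and −0.17 with S100a9, with 9 and 11 of the 12 below control. Of all compared genes, 47.5% and 48.1% were below it. Hars was above control with both proteins (0.09 and 0.07), and Tars and Farsb were above it with S100a8 only. This division was made after the fact, so it is a description of these arrays.

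**Figure D3:**
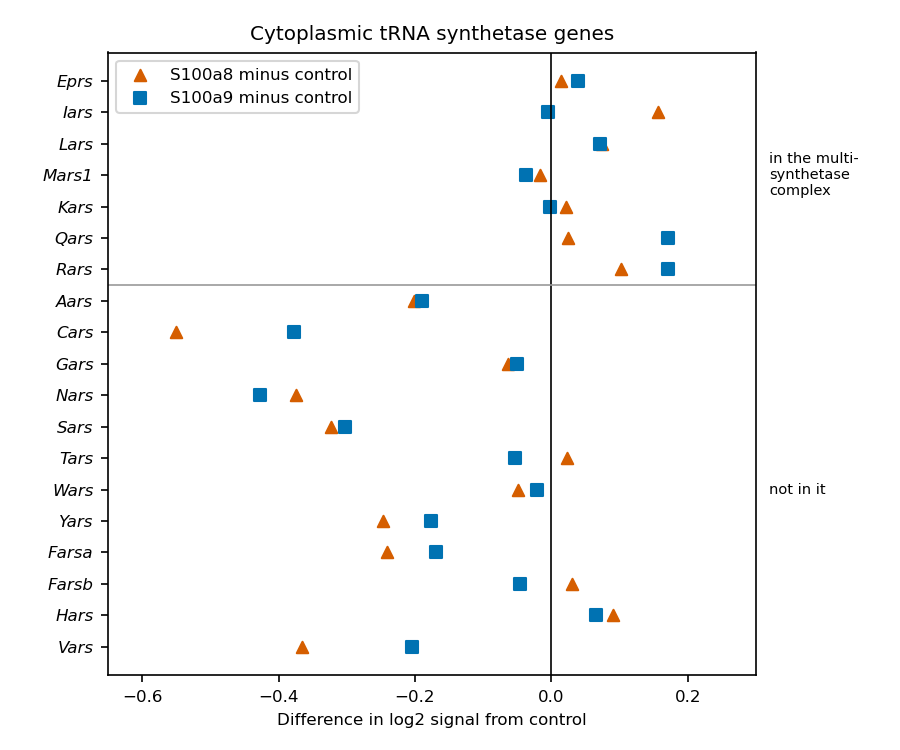
Difference in log2 signal from the control array for 19 cytoplasmic tRNA synthetase genes, split by whether the enzyme is part of the multi-synthetase complex; triangles are S100a8 and squares S100a9. The 7 complex genes sit around or above 0, while Cars, Nars, Sars, Vars, Yars, Farsa and Aars sit to the left of it.

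Other genes of the pathway, from lists chosen for their roles, gave the setting. Beside the counts of these lists, 47.5% of all compared genes were below control with S100a8 and 48.1% with S100a9. Of 13 compared genes for eIF2 kinases, their regulators Gcn1 and Impact, eIF2B subunits and eIF2 phosphatase units, 11 were below control with S100a8 and 10 with S100a9, with medians of −0.14 and −0.06. Ppp1r15a, the stress-induced phosphatase subunit GADD34, was the lowest (861, 1024 and 1328; −0.63 and −0.37). It was 1.54-fold lower with S100a8. Eif2b5, a subunit of the exchange factor eIF2B, was the highest (963, 1038 and 824; 0.23 and 0.33).

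Of 14 further genes of the ATF4 and CHOP axis, 9 were below control with S100a8 and 8 with S100a9, with medians of −0.13 and −0.02. Ddit4, an mTORC1 inhibitor that p53 and hypoxia also induce, was the lowest (1841, 1942 and 3023; −0.72 and −0.64). The highest was Slc7a11, the cystine carrier, at dim signals (104, 106 and 79.6; 0.39 and 0.41). Ddit3, which encodes CHOP, was near control (1610, 1742 and 1761; −0.13 and −0.02), and Atf3 was under the floor throughout; both were named after their values were seen.

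Among 10 other cytoplasmic synthetase and scaffold genes, 4 were below control with S100a8 and 6 with S100a9. Vars (valine) was the lowest (1016, 1137 and 1310; −0.37 and −0.20) and the scaffold gene Eef1e1 the highest (2945, 3120 and 2695; 0.13 and 0.21). Of the 16 compared mitochondrial synthetase genes, 6 were below control with S100a8 and 5 with S100a9, with medians of 0.07 and 0.06. Their lowest ratios were those of Wars2 with S100a8 (−0.23) and of Sars2 with S100a9 (−0.44), and the highest those of Lars2 (0.35) and Mars2 (0.38). Several of these genes were dim, Mars2 among them (93.5, 99.0 and 75.2).

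**Figure D4:**
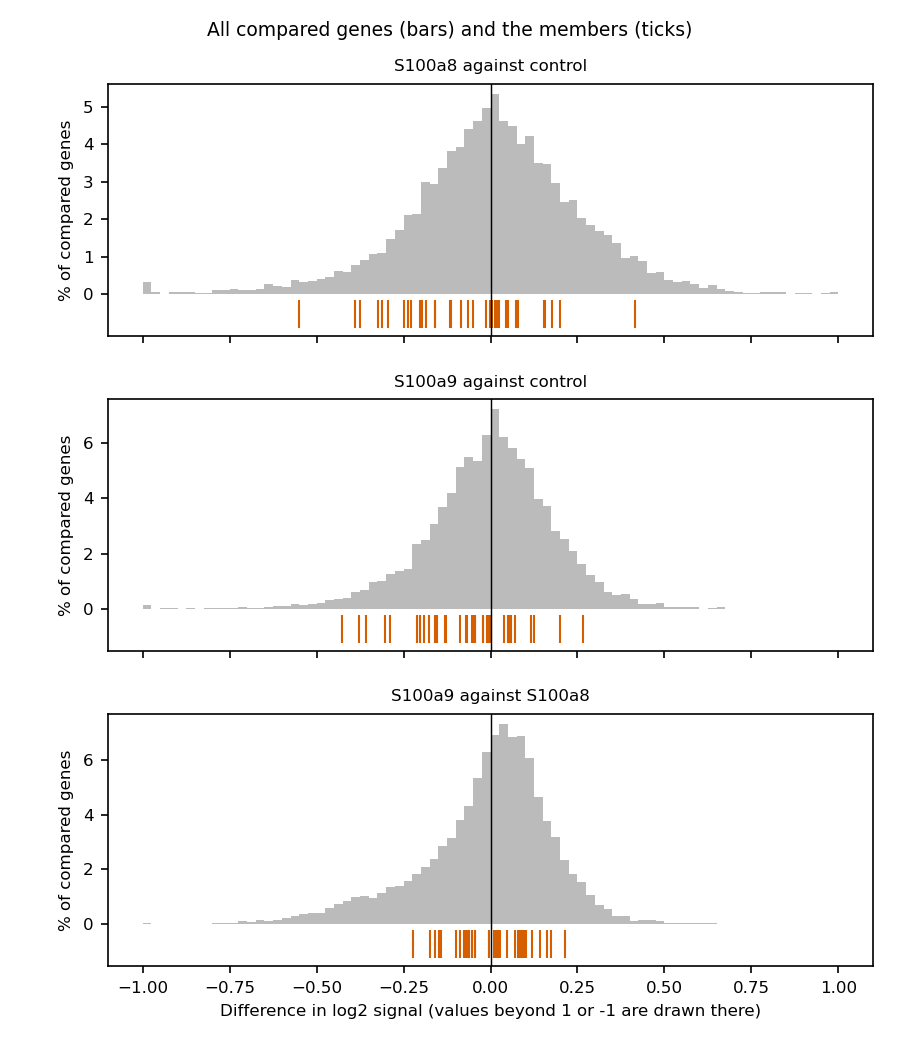
Distribution of the difference in log2 signal over the 11138 compared genes (bars, percent of genes) with the 35 genes of the set as ticks below, for each of the 3 comparisons. Most ticks lie among the taller bars, while the lowest, −0.55 (Cars) with S100a8 and −0.43 (Nars) with S100a9, lie in the left tail.

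Between the proteins, no gene of the set differed by 1.5-fold or by the smaller size of 0.32. Of all compared genes, 7.82% were lower with S100a9 than with S100a8 by 0.32 or more and 2.00% higher, and at 1.5-fold 1.01% and 0.0988%. Trib3 had the lowest ratio, at −0.22 (1934 with S100a9 and 2256 with S100a8), and Slc1a4 the highest, at 0.21 (285 and 246). By direction, 17 of 35 genes were lower with S100a9, against 45.1% of all genes, and the median was 0.01 beside 0.02. The synthesis genes had a median of −0.06 (8 of 11 lower) and the stress-response targets one of 0.10 (2 of 7 lower). These small medians moved with the array scale: with median centring, which shifts the median of all genes to 0.11, 6 of 35 genes were lower (17.1%, against 26.3% of all genes) and the synthesis median was 0.03.

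Probe sets of one gene gave a measure of error within these arrays. For the 4948 genes with several probe sets above the floor, the ratios of the 2 brightest differed by a median of 0.15 with S100a8 and 0.12 with S100a9. At the 90th percentile the gap was 0.45 and 0.36. In the 24 genes of the set with such a pair the median gap was 0.15 and 0.09. The pair pointed the same way in 15 of 24 genes with S100a8 and 18 of 24 with S100a9, and over all genes in 64.2% and 63.3%. On the brightest probe sets, the ratios past that 90th percentile gap were those of Cars alone with S100a8, and of Cars and Nars with S100a9. The second probe set of Cars, close to the floor, gave 0.11 and −0.11. Further probe sets of other genes were past the gap too, among them 1 of Slc1a5 (−1.04 and −0.71) and 1 of Slc38a2 (−0.72 and −0.53). Among these 24 genes, Mthfd2, Shmt2, Nars, Sars, Aars, Nupr1, Cebpb, Slc7a1 and Slc38a2 were below the control on both probe sets with each protein. The share of all genes that meet this condition was not computed, so the list is a description only. A further, dim probe set of Slc38a2 was above control with S100a8 (0.22). Both comparisons use the same control array. Agreement between probe sets covers the array measurement, not the difference between cultures.

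**Figure D5:**
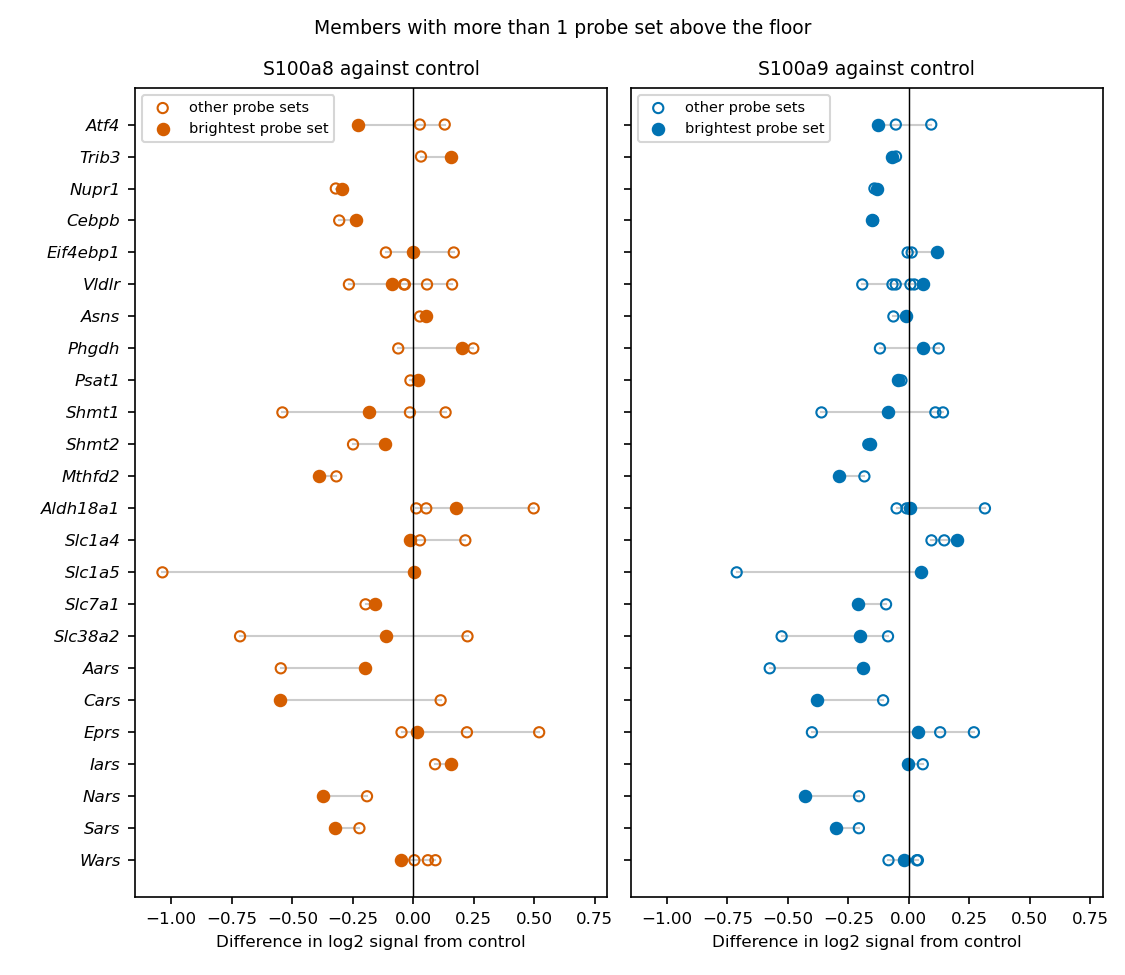
Difference in log2 signal from control for each probe set above the floor, in the 24 genes with more than 1, with filled points for the brightest probe set and open points for the others. Points of Mthfd2, Shmt2, Nars, Sars, Nupr1, Cebpb, Slc7a1 and Aars lie left of 0 in both panels, while those of Slc38a2, Slc1a5, Eprs, Shmt1 and Atf4 are spread widely or lie on both sides of 0.

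The promoter element can be set beside the signals. The 8 compared genes that carry it had median log2 ratios of −0.14 with S100a8 and −0.09 with S100a9, with 6 and 7 of the 8 below control. The 20 compared genes whose listed promoters lack it had medians of −0.06 and −0.07, with 11 and 14 below control. Of all compared genes, 47.5% and 48.1% were below control. The lowest ratio with S100a8 was −0.39 without the element and −0.31 with it, and with S100a9 −0.30 and −0.36. Cars and Nars, which hold the lowest ratios of the set on the brightest probe sets, had no listed promoter and are in neither group. Within the group with the element, Chac1 and Nupr1 were lowest with S100a8 (−0.31 and −0.29), and Asns, Gars and Tars were near 0. The promoters printed above were chosen by the size of the difference, so large differences beside them follow from that choice. No match in this window says nothing about elements elsewhere in a gene.

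The arrays had a median signal of 78.6 (S100a8), 73.6 (S100a9) and 76.1 (control). The 24 poly-A spike-ins, RNAs added before labelling, had median log2 ratios of 0.12 (SD 0.12) with S100a8 and 0.28 (SD 0.10) with S100a9 against control, and the 3′ to 5′ ratio of Actb was 1.65, 1.56 and 1.44. The same ratio of Gapdh was 1.01, 1.03 and 0.961, close to 1 on each array. The spike-ins and the ratio of Actb move with the treated arrays, as do the small negative medians of the set. Their part in those medians was not tested. Of 9 epithelial markers, 4 (Epcam, Krt18, Krt20 and Cdx2) were at or above the floor on each array, with summed signals of 1775 to 2143, while Cdh1, Krt8, Krt19, Vil1 and Cldn7 were below it. Of 6 fibroblast markers 5 were above the floor, with sums of 24040, 24221 and 24887 that Vim and Col1a2 dominate, and all 5 were below control with S100a8 and 4 with S100a9. Among them Pdgfrb had signals of 426, 476 and 808 (log2 ratios of −0.92 and −0.76) and Dcn 157, 243 and 296 (−0.92 and −0.28). The differences of Pdgfrb with each protein and of Dcn with S100a8 were larger than any of the brightest probe sets of the set. Of 6 macrophage and granulocyte markers 3 were above it, with sums of 1034, 952 and 743, and Ptprc, Adgre1 and Itgam below it. Lymphoid markers (3 of 3 above the floor) summed to 855 to 1051 and endothelial ones (2 of 4) to 279 to 331. As a panel for background signal, 9, 6 and 5 of 80 probe sets of olfactory and vomeronasal receptor genes were also at or above the floor (S100a8, S100a9 and control). The labels name 1 cell line, so the marker sums are not read as the presence of other cell types. Fewer cells of a kind and less RNA per cell cannot be told apart in such bulk RNA, and the part of these markers in the results was not tested.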

How the data were processed

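The data are 1 Affymetrix whole-genome mouse array per group. The authors deposited linear intensities, 1 per probe set; the submitters' processing notes name MAS5, and its version and scaling target are not given here. Because MAS5 takes off the mismatch signal, dim values are noisy, and global scaling removes differences in overall RNA amount. The values ran from 0.72 to 21962 over 45101 probe sets, of which 64 are controls. The labels' protocols name Trizol extraction and 1 µg of RNA per labelling.

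Platform annotation, which can be old, gave 34945 probe sets 1 gene symbol and 932 several (left out), and did not list 9160. Values under the 50th percentile were set to it (75.97) and log2 was taken. Each gene was read from its brightest probe set by mean log2 and was compared if that mean exceeded the floor (11138 of 18193 genes). The mean was taken before flooring, a choice settled after the data were seen, so that 1 bright array does not admit a gene. Differences of log2 and folds were then calculated with Python 3.11.15, numpy 2.4.6 and pandas 2.3.3, and checked on simulated data. With 1 array per group no p-value was computed, and precision is limited by the number of arrays.

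The genes and lists were chosen with earlier results of these data known. Signals were given for each measured gene of the set, which goes past the rule of naming Atf4, Trib3, Chac1, Asns and the 3 highest and 3 lowest of each role, and for the highest and lowest ratio of each further list. Promoters were matched by symbol. The alternatives changed the scaling (median centring or quantile normalization), the floor (30th percentile, 65th percentile, or none with log2(value + 1)), the filter (none), the probe set (all averaged, or those without _x_at and _s_at endings preferred) and the size counted (0.32 on the log2 scale, or 2-fold). After the data were seen, 2 more were added: centring by brightness in 20 bins, and a filter at the 75th percentile.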

Additional observations from a re-analysis of the deposited data

How the results depend on the processing

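Over the 10 alternative settings the median log2 ratio of the compared genes of the set stayed below 0 in both comparisons with control, from −0.11 to −0.014 with S100a8 and from −0.068 to −0.0057 with S100a9. Genes below control numbered 19 to 27 with either protein. That was 55.9% to 77.1% of the set with S100a8, where the share of all genes ran from 29.6% to 56.8%. With S100a9 it was 54.3% to 76.5%, where that of all genes ran from 30.1% to 49.7%. The lowest shares of all genes came without the filter. Genes of the set lower by 0.32 or more on the log2 scale numbered 3 to 6 with S100a8 and 2 to 4 with S100a9. The share of all genes at that size was not computed for each setting. With a size of 0.32 in place of 1.5-fold, 5 genes passed with S100a8 and 3 with S100a9, and with 2-fold none did. One gene passed 1.5-fold with S100a8 under median centring, as did 1 with S100a8 and 1 with S100a9 under the floor at the 30th percentile, which also left 1 gene lower by 0.32 or more with S100a9 than with S100a8.

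Role medians that moved by 0.05 or more, or changed sign from at least that size, were these. For S100a9 against S100a8, median centring gave 0.11 for the whole set, with 6 genes lower, 0.19 for the stress-response targets, 0.033 in place of −0.062 for synthesis, 0.092 for transport and 0.11 for tRNA charging. The mean of all probe sets gave −0.0034 for the stress-response targets in that comparison, in place of 0.10. Against control it gave −0.035 (S100a8) and −0.061 (S100a9) for these targets and −0.14 for transport with S100a8. The floor at the 30th percentile and the absence of a filter each gave −0.16 for the stress-response targets and −0.11 for transport with S100a8. For transport between the proteins, the 30th percentile floor gave 0.048 and genes above the 75th percentile gave −0.053, and the latter gave −0.11 with S100a8. Medians nearer 0 also changed sign. Under median centring the synthesis median went from 0.046 to −0.0004 with S100a8 and from −0.022 to 0.026 with S100a9. Between the proteins, quantile normalization gave 0.0061 and the mean of all probe sets 0.043 for transport (−0.0025 before). The mean of all probe sets and the centring by brightness gave −0.023 and −0.011 for tRNA charging and −0.0054 and −0.011 for the whole set, which the preference for other probe sets put at −0.0037. Among single genes, the mean of all probe sets took Cars to −0.22 and −0.24, Nars to −0.28 and −0.317 and Sars to −0.27 and −0.25 with S100a8 and S100a9, each under the smaller size, and Slc1a5 to −0.52 and −0.33. Sars with S100a8 was also under it with quantile normalization (−0.31), and Chac1 with S100a9 under median centring (−0.31). Aars lay at −0.55 and −0.58 when probe sets without _s_at endings came first. The filters change which genes enter; the other causes were not tested. No paired analysis was possible because each group held 1 array. Dim probe sets, below about the floor, limit Cbs, Cth, Stc2 and Slc7a3.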
